A study of Homo sapiens with 15 samples.

Results

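The genes described here are the 7 human sirtuins, SIRT1 to SIRT7, the NAD-dependent deacylases. They were found by gene symbol in a table of 60649 genes, and all 7 were also among the 23711 genes that passed the filter on low counts. The cells were K562, an established line of chronic myeloid leukemia that carries the BCR-ABL fusion. There were 15 mRNA libraries in 5 groups of 3 biological replicates: untreated cells, and cells given martinostat, an inhibitor of the zinc-dependent histone deacetylases (HDACs), for 24 h at 0.15, 0.25, 0.5 or 1 µM. All groups were the same wild-type line, so the values describe 1 line and 1 time point, and the labels name no vehicle for the untreated cells.

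Sirtuins remove acetyl and other acyl groups from lysines and use up NAD+ in each cycle, whereas the classical HDACs use a zinc ion, which is what a hydroxamate binds. Sirtuin activity was not measured in these data. The members differ by where they act. SIRT1, SIRT6 and SIRT7 work in the nucleus on histones and transcription factors, SIRT2 is mostly a cytoplasmic tubulin deacetylase, and SIRT3, SIRT4 and SIRT5 sit in mitochondria. The comparisons below answer which sirtuin mRNAs changed under an inhibitor aimed at the zinc-dependent deacetylases, at which dose, and by how much.

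Library totals ranged from 23755510 to 32805574 counts. Levels are given as CPM on library sizes scaled by edgeR's TMM method, and differences as log2 fold changes from its quasi-likelihood test. A change was called where the p adjusted by Benjamini and Hochberg was under 0.05. The RNA came from whole cultures, where fewer cells expressing a gene and less RNA per cell cannot be told apart. The 4 comparisons with untreated cells share the 3 untreated libraries. The scaling matters here. With TMM the median log2 fold change of all genes tested was 0.28, 0.32, 0.34 and 0.32 at the 4 doses in rising order, and with plain library totals it was 0.64, 0.84, 0.72 and 0.67. At 0.15 µM, 7554 genes were called higher and 4593 lower with TMM, against 9578 and 2126 with library totals. At 0.25 µM the split was 8872 to 5888 with TMM and 11686 to 3070 with totals, while 1 µM gave 9192 to 6515 and 10802 to 4781. The third replicates at 0.25 and 0.5 µM stood apart from the other libraries on the third principal component, with scores of −82.1 and −83.0 against −23.8 or above in the others, so results that rest on them are also given without both. Of 9 markers of K562 cells 6 were called lower, 1 higher and 2 not at 1 µM, beside 27.5% lower and 38.8% higher among all genes tested. The 1 higher was HBE1, near the floor with 0.169 CPM in untreated cells and 0.490 at 1 µM. The summed level of the 9 went from 3150 to 3433 CPM in the untreated libraries to between 1541 and 1667 CPM at 1 µM. Of these sums TFRC alone made 1227 ± 110 CPM untreated and 484 ± 58.9 CPM at 1 µM (SD, n = 3). Of 8 markers of T cells, B cells, monocytes and fibroblasts, MS4A1 had 0 counts in the untreated libraries and at 0.15 and 0.25 µM, and the sum of all 8 was 35.3 to 42.1 CPM in untreated cells and 313 to 500.5 CPM at 1 µM, of which COL1A1 alone made 397 ± 94.3 (SD, n = 3). The part of either set in the sirtuin values was not tested.

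Of the 7 sirtuins 6 differed among the 5 groups, where 73.6% of all genes tested did. SIRT4 had an edgeR adjusted p of 8.4e-10, SIRT1 of 2.8e-06, SIRT2 of 9.9e-06, SIRT7 of 1.7e-05, SIRT3 of 0.013 and SIRT5 of 0.033, and SIRT6 of 0.85. The calls of SIRT1, SIRT2, SIRT4 and SIRT7 held when any single library was left out. The call of SIRT3 was lost without the first or second untreated library (edgeR adjusted p = 0.068 and 0.063). That of SIRT5 was lost without any 1 of 6 libraries, with an edgeR adjusted p of up to 0.25 without the third at 0.25 µM.

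**Figure D1:**
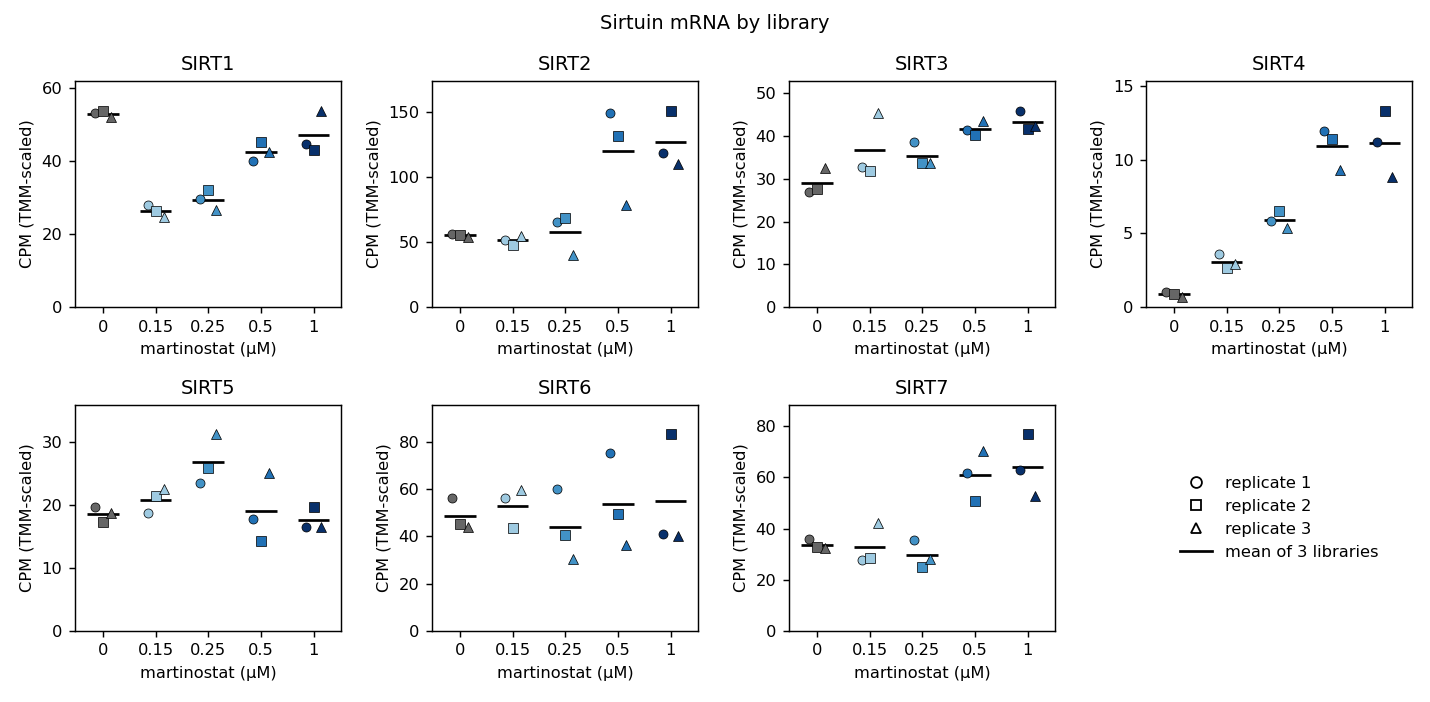
CPM (TMM-scaled, y axis from 0 in each panel) of the 7 sirtuins by martinostat dose (x axis, µM). Points are the 3 libraries of a group with 1 symbol per replicate number, and lines are group means. SIRT4 climbed from 0.871 to 11.1 CPM, SIRT1 dipped at the 2 lowest doses, SIRT2 and SIRT7 stepped up between 0.25 and 0.5 µM, and SIRT6 was not called at any dose.

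Against untreated cells, 1 sirtuin was called higher at 0.15 µM (SIRT4), 2 at 0.25 µM (SIRT4, SIRT5), and 4 at each of 0.5 and 1 µM (SIRT2, SIRT3, SIRT4, SIRT7). Among all genes tested, 31.9%, 37.4%, 39.4% and 38.8% were called higher at these doses, so 4 of 7 is not far above that background. One sirtuin, SIRT1, was called lower at each of 0.15, 0.25 and 0.5 µM, and 0 at 1 µM, where 19.4%, 24.8%, 27.6% and 27.5% of all genes were. The median log2 fold change of the 7 was 0.13, 0.06, 0.52 and 0.58 in rising dose order, beside the medians of all genes given above. Members moved in opposite directions at the same dose, SIRT1 down and SIRT4 up at 0.15 and 0.25 µM.

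**Figure D2:**
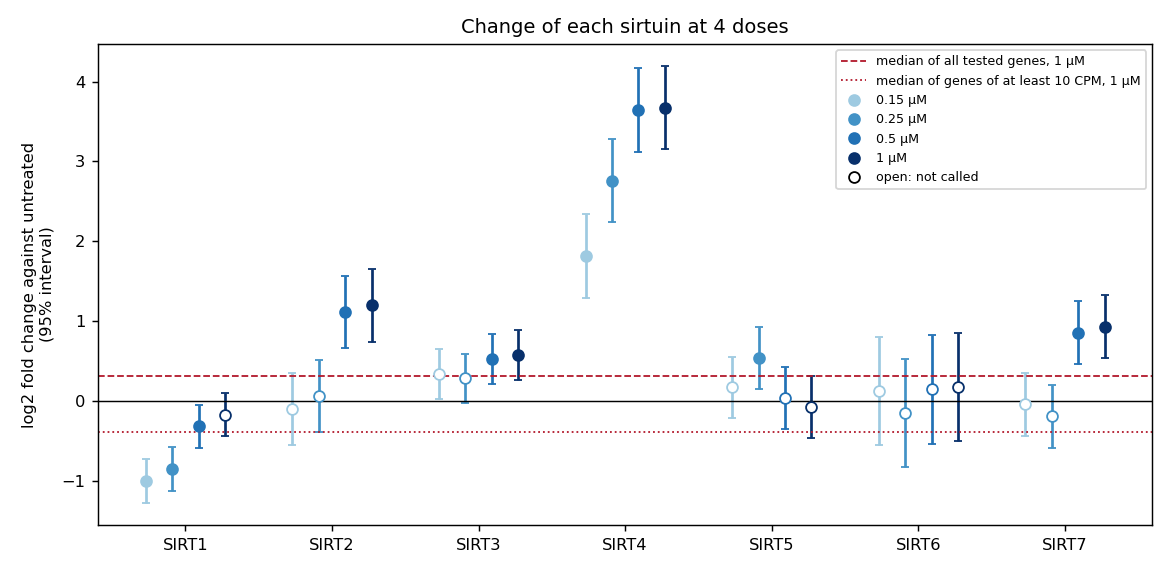
Log2 fold change of each sirtuin against untreated cells (y axis) with its 95% interval, for the 4 doses from left to right within each gene. Filled points were called (edgeR adjusted p under 0.05), and the dashed and dotted lines mark the median of all genes tested (0.32) and of genes of at least 10 CPM (−0.39) at 1 µM. SIRT4 lay above both lines at every dose.

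SIRT4, a mitochondrial sirtuin known for restraining glutamate dehydrogenase and fatty acid oxidation, showed the strongest change of the family. It is a small gene on chromosome 12 (hg38, GENCODE release 44, plus strand, 120302316 to 120313249) with 1222 exon bases. Untreated libraries held 25, 23 and 18 SIRT4 counts, or 1.02, 0.887 and 0.704 CPM. The level was 3.62, 2.64 and 2.96 CPM at 0.15 µM, then 5.82, 6.54 and 5.38 CPM at 0.25 µM. It reached 12.0, 11.4 and 9.34 CPM at 0.5 µM and 11.2, 13.4 and 8.85 CPM at 1 µM. The groups did not overlap up to 0.5 µM, and those at 0.5 and 1 µM did. In rising dose order the log2 fold change was 1.82, 2.76, 3.64 and 3.67, each ± 0.25 (SE), the last a 12.8-fold rise (edgeR adjusted p = 2.6e-10).

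SIRT4 also rose from dose to dose at the low end. The step from 0.15 to 0.25 µM was 0.94 (95% interval 0.48 to 1.40, edgeR adjusted p = 0.0085), and SIRT4 was the 1 sirtuin called higher there, with 4.96% of all genes called higher and 7.32% lower. The step from 0.25 to 0.5 µM was 0.88 (0.44 to 1.33, edgeR adjusted p = 0.0034). From 0.5 to 1 µM it was 0.03 (−0.40 to 0.47). Relative to the median of all genes the rise at 1 µM was 3.36, and its lowest value over 4 scalings of the libraries was 3.67, so no scaling turned or ended this call.

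SIRT3, the main mitochondrial deacetylase, rose less. Its levels were 26.8, 27.7 and 32.5 CPM in untreated cells, 32.7, 31.8 and 45.5 at 0.15 µM and 38.6, 33.8 and 33.6 at 0.25 µM. They were 41.4, 40.2 and 43.6 CPM at 0.5 µM and 46.0, 41.6 and 42.3 CPM at 1 µM, all above the untreated range. The log2 fold change was called at 0.5 µM (0.52 ± 0.15, edgeR adjusted p = 0.0042) and at 1 µM (0.58 ± 0.15, edgeR adjusted p = 0.0021). At 0.15 µM it was 0.34 (edgeR adjusted p = 0.064) and at 0.25 µM 0.28 (edgeR adjusted p = 0.10). Both lower doses were called under other scalings, with 0.69 and 0.81 on library totals (edgeR adjusted p = 0.0017 and 3.2e-04). The changes at 0.5 and 1 µM exceeded the median of all genes by 0.18 and 0.26. They exceeded the median of genes of at least 10 CPM, as SIRT3 is, by 0.90 and 0.96. SIRT3 was not called in any step between neighbouring doses.

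SIRT5, the mitochondrial desuccinylase, was highest at 0.25 µM. Untreated libraries had 19.6, 17.2 and 18.7 CPM, those at 0.15 µM 18.6, 21.3 and 22.4 CPM, and those at 0.25 µM 23.4, 25.8 and 31.2 CPM. At 0.5 µM the values were 17.6, 14.2 and 25.0 CPM and at 1 µM 16.5, 19.7 and 16.5 CPM. The groups at 0.25 µM and untreated did not overlap, and those at 0.5 µM and untreated did. SIRT5 was called higher at 0.25 µM (0.54 ± 0.18, edgeR adjusted p = 0.017). That call ended without the second untreated library (0.48, edgeR adjusted p = 0.063) or the third at 0.25 µM (0.43, edgeR adjusted p = 0.078). It held without the third replicates of both doses (0.44, edgeR adjusted p = 0.019).

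From 0.25 to 0.5 µM SIRT5 had a log2 fold change of −0.50 ± 0.18 (edgeR adjusted p = 0.048). This call was lost under 22 of 27 alternatives, including DESeq2 (adjusted p = 0.067) and leaving out any untreated library, and without the third library at 0.25 µM it was −0.34 (edgeR adjusted p = 0.25). With the third replicates of both doses out it was −0.61 (edgeR adjusted p = 0.0096), and with the replicate number as a block over those 6 libraries it was −0.53 (edgeR adjusted p = 0.0039). At 1 µM the log2 fold change against untreated cells was −0.07 (edgeR adjusted p = 0.74), and its sign turned to 0.28 on library totals. ENSG00000261071, on the other strand, covers 9.37% of the SIRT5 exon bases, the largest such share in the family.

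SIRT1, a nuclear deacetylase of histones and of factors such as FOXO proteins, was the 1 sirtuin called lower than in untreated cells. It lies on chromosome 10 (67884656 to 67918390, plus strand) and shares no exon base with another gene. Its levels were 53.1, 53.9 and 52.0 CPM in untreated cells, 28.0, 26.4 and 24.7 at 0.15 µM and 29.6, 32.0 and 26.7 at 0.25 µM. At 0.5 µM they were 40.1, 45.3 and 42.5 CPM and at 1 µM 44.8, 42.9 and 53.6 CPM. The untreated libraries lay above all libraries at 0.15, 0.25 and 0.5 µM, and 1 library at 1 µM lay within their range. SIRT1 was 2.01-fold lower at 0.15 µM (log2 fold change −1.01 ± 0.13, edgeR adjusted p = 3.6e-06) and 1.80-fold lower at 0.25 µM (−0.85 ± 0.13, edgeR adjusted p = 1.5e-05).

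The fall at 0.15 µM held under all 26 alternatives, and on library totals it was −0.65 (edgeR adjusted p = 0.0012). At 0.25 µM the call was lost under 2 of 26 alternatives, among them library totals (−0.33, edgeR adjusted p = 0.051). At 0.5 µM the log2 fold change was −0.32 ± 0.13 (edgeR adjusted p = 0.038), a call that was lost under 13 of 26 alternatives and turned in direction under 4, among them library totals (0.064) and TMM restricted to genes above 10 CPM (0.10). At 1 µM it was −0.17 (edgeR adjusted p = 0.25) and turned to 0.18 and 0.21 under the same scalings.

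The rise of SIRT1 across the doses did not depend on the untreated libraries. Its step from 0.25 to 0.5 µM was 0.54 (0.27 to 0.81, edgeR adjusted p = 0.0036) and was called under all 27 alternatives. From 0.15 to 1 µM it was 0.84 (0.56 to 1.11, edgeR adjusted p = 3.6e-05). All libraries at 0.5 and 1 µM were above all libraries at 0.15 and 0.25 µM. SIRT1 was therefore lower at the low doses than at the high doses.

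SIRT2, a cytoplasmic deacetylase of α-tubulin, rose at the highest doses. Untreated libraries had 56.3, 55.5 and 54.0 CPM, those at 0.15 µM 51.8, 48.0 and 54.4 CPM, and those at 0.25 µM 65.3, 68.4 and 39.8 CPM. At 0.5 µM they had 149, 131 and 78.7 CPM and at 1 µM 119, 151 and 110 CPM. All of these were above every untreated library and every library at 0.15 and 0.25 µM. The log2 fold change was 1.11 ± 0.22 at 0.5 µM (edgeR adjusted p = 0.00017) and 1.20 ± 0.22 at 1 µM (edgeR adjusted p = 8.4e-05). Without the third replicates of both doses, which were the lowest libraries at 0.25 and at 0.5 µM, it was 1.38 at 0.5 µM. At 0.15 µM the value was −0.10 and turned to 0.25 on library totals. At 0.25 µM it was 0.06 (edgeR adjusted p = 0.81) and was called at 0.56 on library totals (edgeR adjusted p = 0.0072).

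SIRT7, the nucleolar sirtuin linked to ribosomal RNA transcription, also rose at the highest doses. It had 35.9, 32.9 and 32.4 CPM in untreated cells, 27.6, 28.5 and 42.1 at 0.15 µM and 35.5, 24.9 and 28.1 at 0.25 µM. At 0.5 µM the values were 61.6, 50.9 and 70.3 CPM, and at 1 µM 63.0, 76.9 and 52.9 CPM. No untreated library or library at 0.15 or 0.25 µM reached the range at 0.5 and 1 µM. The log2 fold change was 0.86 ± 0.19 at 0.5 µM (edgeR adjusted p = 0.00057) and 0.93 ± 0.19 at 1 µM (edgeR adjusted p = 0.00026). At 0.15 and 0.25 µM it was −0.04 and −0.19 and turned to 0.31 and 0.33 on library totals, with no call under any scaling.

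Between 0.25 and 0.5 µM, 4 sirtuins were called higher (SIRT1, SIRT2, SIRT4 and SIRT7) and 1 lower (SIRT5), where 14.4% of all genes were called higher and 16% lower. The SIRT2 step was 1.05 ± 0.22 (edgeR adjusted p = 0.0010) and that of SIRT7 1.05 ± 0.19 (edgeR adjusted p = 0.00031). SIRT3 had 0.24 (edgeR adjusted p = 0.24). With TMM the median of the 7 steps was 0.54 and that of all genes 0.02. On library totals the median of all genes was −0.12. The steps of SIRT1, SIRT2 and SIRT3 were lower there too, at 0.40, 0.89 and 0.10. From 0.15 to 1 µM the same 4 sirtuins were called higher and 0 lower, with 21.5% and 23.1% of all genes called in those directions. SIRT2 rose by 1.30 there and SIRT7 by 0.97.

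From 0.5 to 1 µM 0 of the 7 sirtuins and 0 of all 23711 genes (0%) were called by edgeR, and DESeq2 and limma called 0 sirtuins as well. At an unadjusted p under 0.05, 372 genes passed in edgeR. The 7 log2 fold changes lay between −0.11 (SIRT5) and 0.14 (SIRT1), and the interval of SIRT1 reached from −0.12 to 0.41. A missing call does not show that these doses act alike.

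SIRT6, the nuclear sirtuin of telomeric chromatin and DNA repair, was not called in any comparison. Its levels were 56.2, 45.5 and 44.1 CPM in untreated cells, 56.3, 43.4 and 59.6 at 0.15 µM and 60.3, 40.7 and 30.5 at 0.25 µM. At 0.5 µM they were 75.6, 49.4 and 36.4 CPM and at 1 µM 41.2, 83.3 and 40.1 CPM. The range of every treated group overlapped that of the untreated libraries. The log2 fold change at 1 µM was 0.18 with an interval of −0.50 to 0.85, the widest of the family together with the other SIRT6 comparisons, and without the second library at 1 µM it was −0.26. Same-numbered libraries at 0.25 and 0.5 µM deviated together, and in a fit of these 6 libraries with the replicate number as a block the step between them was 0.28 and called (edgeR adjusted p = 0.035), against 0.29 (edgeR adjusted p = 0.53) without the block.

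**Figure D3:**
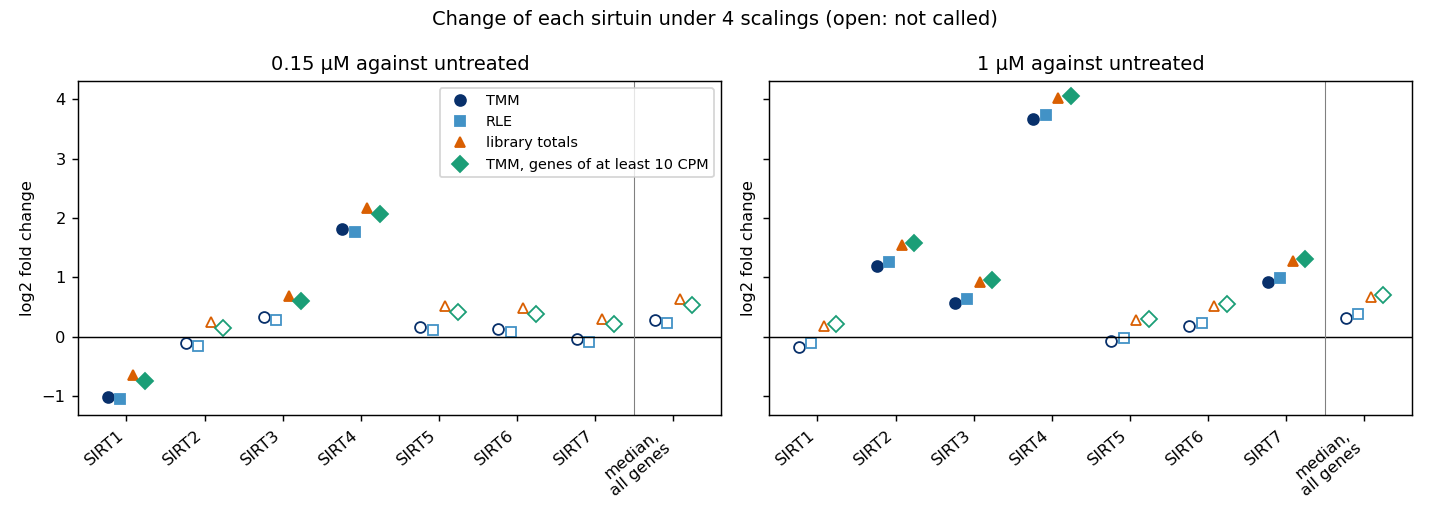
Log2 fold change of each sirtuin (y axis) at 0.15 µM (left) and 1 µM (right) against untreated cells under 4 scalings of the libraries, with the median of all genes tested at the far right. Filled symbols were called. Library totals raised every value by about as much as the median of all genes, from 0.28 to 0.64 on the left, so the signs of SIRT2 and SIRT7 at 0.15 µM and of SIRT1 and SIRT5 at 1 µM depended on the scaling while SIRT4 stayed the highest.

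CPM values do not compare genes of different length, so levels between members were set per kilobase of exon. In untreated cells, on all annotated exon bases, the order was SIRT6 with 17.7 ± 2.42 CPM per kb (SD, n = 3), SIRT1 with 11.6 ± 0.206, SIRT2 with 8.91 ± 0.188, SIRT7 with 5.49 ± 0.308, SIRT3 with 5.23 ± 0.552, SIRT5 with 1.64 ± 0.107 and SIRT4 with 0.713 ± 0.130. SIRT7 and SIRT3 overlapped. At 1 µM it was SIRT2 with 20.4 ± 3.48, SIRT6 with 20.0 ± 8.98, SIRT7 with 10.5 ± 1.97, SIRT1 with 10.3 ± 1.25, SIRT4 with 9.12 ± 1.84, SIRT3 with 7.80 ± 0.425 and SIRT5 with 1.55 ± 0.162 CPM per kb. There SIRT2 and SIRT6, the run of SIRT7, SIRT1 and SIRT4, and SIRT4 and SIRT3 overlapped. On all exon bases SIRT4 thus went from the lowest level to the range of SIRT1, and SIRT5 became the lowest. The order depends on the length used. Per kb of the MANE Select transcript, the reference isoform of each gene, the untreated means were 30.4 for SIRT6, 29.7 for SIRT2, 19.5 for SIRT7, 12.9 for SIRT1, 10.1 for SIRT3, 4.05 for SIRT5 and 0.716 for SIRT4. At 1 µM they were 68.1 for SIRT2, 37.2 for SIRT7, 34.3 for SIRT6, 15.0 for SIRT3, 11.5 for SIRT1, 9.16 for SIRT4 and 3.85 for SIRT5. On this length the libraries of SIRT6 and SIRT2 overlapped in untreated cells (SD 4.15 and 0.625), as did those of SIRT7 and SIRT6 (SD 6.99 and 15.4) and of SIRT1 and SIRT4 (SD 1.39 and 1.85) at 1 µM. SIRT4 was lowest in untreated cells and SIRT5 at 1 µM on both lengths.

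The summed level of the 7 was 51.3 ± 2.74 CPM per kb in untreated cells and, in rising dose order, 49.7 ± 5.79, 50.1 ± 8.69, 76.3 ± 12.4 and 79.6 ± 15.0 (SD, n = 3). As a share of that sum, SIRT4 went from 1.39% to 11.5% between untreated cells and 1 µM, SIRT2 from 17.4% to 25.7%, SIRT1 from 22.7% to 13.4% and SIRT6 from 34.4% to 24.3%. These shares depend on the length as well. On the MANE Select transcript SIRT2 held 27.7% and 38.1%, SIRT6 28.2% and 18.6%, SIRT7 18.2% and 20.8%, SIRT1 12.0% and 6.62% and SIRT4 0.664% and 5.11%. The FPKM that the authors deposited divide by the whole genomic span of the gene, introns included, so that SIRT4 had 1.04 FPKM at 1 µM against 0.0640 in untreated cells. These FPKM are scaled on library totals, and their sum over the 7 was 12.3 ± 1.16 in untreated cells. In rising dose order it was 15.8 ± 1.68, 16.8 ± 2.44, 23.8 ± 2.59 and 24.6 ± 5.23. Unlike the sum in CPM per kb, its mean was thus already higher at 0.15 µM. Shares carry no test.

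**Figure D4:**
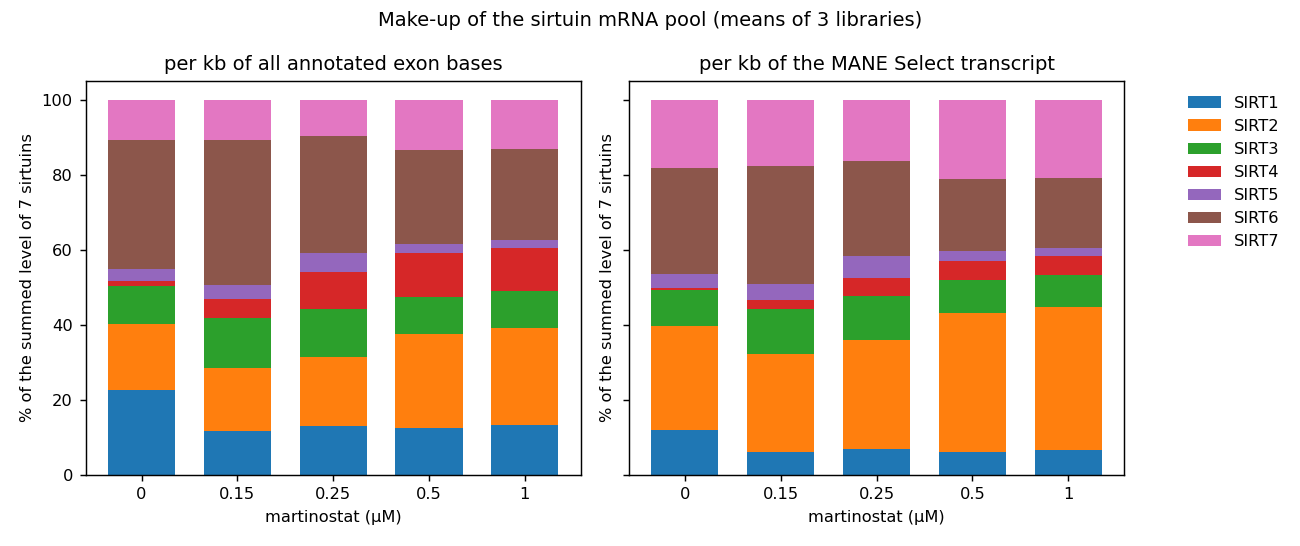
Share of each sirtuin in the summed level of the 7 (y axis, %) by martinostat dose (x axis, µM), as the mean of 3 libraries, per kb of all annotated exon bases (left) and of the MANE Select transcript (right). The SIRT4 segment widens from 1.39% to 11.5% on the left and from 0.664% to 5.11% on the right, and that of SIRT2 widens on both scales.

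Of the sirtuins, 3 start beside a protein-coding gene of the opposite strand, within 1000 bp. SIRT6 on chromosome 19 (4174109 to 4182566, minus strand) starts 123 bp from ANKRD24, a gene of an ankyrin repeat protein. ANKRD24 had 0, 2 and 2 counts in the untreated libraries and 559, 502 and 894 at 0.15 µM. At 1 µM it had 1705, 1544 and 1594 counts, or 60.4, 53.3 and 55.5 CPM. The summed counts were 4843 at 1 µM against 4 untreated. Scaled by the TMM library sizes, they give a ratio of 1071. Its exact counting interval of 418 to 3932 covers counting error only. Called higher by edgeR at all 4 doses under the 4 scalings, ANKRD24 rose beside SIRT6, which was not called at any of them. The 2 genes share no annotated exon base. The stretch between their starts is shown because both genes begin at its ends (capitals mark motifs explained further on):

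SIRT6 upstream, chr19:4182567-4182688, minus strand: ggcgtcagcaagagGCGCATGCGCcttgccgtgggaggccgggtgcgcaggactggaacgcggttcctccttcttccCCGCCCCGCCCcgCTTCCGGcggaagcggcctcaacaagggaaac

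NFKBIB, an inhibitor of NF-κB, starts 162 bp from SIRT2 (chromosome 19, 38878555 to 38899862, minus strand) and was called in the other direction. It had 62.6, 59.7 and 56.5 CPM in untreated cells and 19.1, 30.9 and 20.0 CPM at 1 µM. NFKBIB was called lower at all 4 doses, by −0.72, −1.33, −1.62 and −1.35 in rising order (edgeR adjusted p = 0.015 or lower), except that the call at 0.15 µM was lost on library totals (−0.37, edgeR adjusted p = 0.17) and with TMM restricted to genes above 10 CPM (−0.46, edgeR adjusted p = 0.099). With TMM both genes were called at 0.5 and 1 µM, and at 0.15 and 0.25 µM NFKBIB was called lower and SIRT2 was not called. On library totals SIRT2 was called higher at 0.25 µM as well (0.56, edgeR adjusted p = 0.0072). TMM restricted to genes above 10 CPM gave 0.47 for SIRT2 there (edgeR adjusted p = 0.037). NFKBIB was called lower at 0.25 µM under both (−0.81 and −0.91). At the step from 0.25 to 0.5 µM, where SIRT2 rose, NFKBIB had −0.29 (edgeR adjusted p = 0.38). At 0.5 and 1 µM SIRT2 was higher and NFKBIB lower in all 6 libraries than in any untreated one. PSMD13, a proteasome subunit 35 bp from SIRT3, was not called at any dose, with −0.44, −0.48, −0.24 and −0.27 and signs that turned on library totals at the last 3 of these. Only 0.645% of the SIRT2 exon bases and 1.51% of those of SIRT3 lie under opposite-strand genes.

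**Figure D5:**
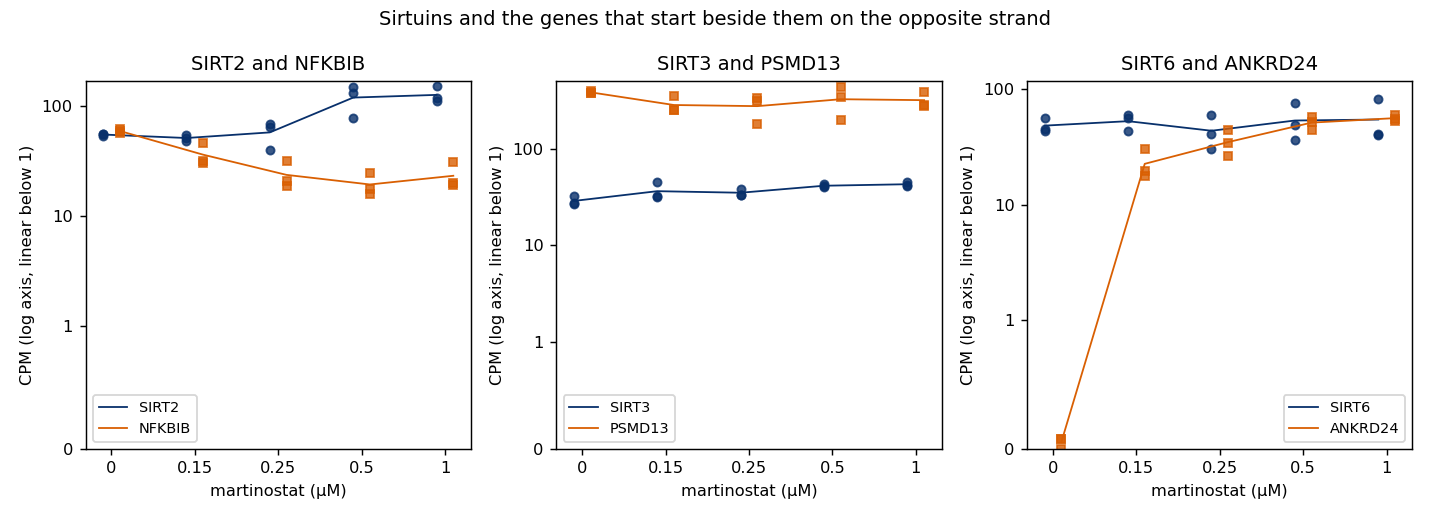
CPM (log axis, linear below 1) of SIRT2, SIRT3 and SIRT6 and of the gene that starts next to each on the opposite strand, by martinostat dose (x axis, µM). Points are libraries and lines join group means, to be read within a gene. NFKBIB was called lower from 0.15 µM on and SIRT2 higher from 0.5 µM on, PSMD13 was not called, and ANKRD24 left the floor at 0.15 µM while SIRT6 stayed between 30.5 and 83.3 CPM.

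The promoters of the members with the clearest opposite responses are also shown, as the bases before the RefSeq start in GRCh38.p14 that no annotated exon covers. Both strands of 300-base windows (250 before and 50 after the start) were searched for GGGCGG as the GC box, for the CCAAT box, for CACGTG as the E box, for the ETS core CCGGAAG and the palindromic NRF1 motif, and capitals mark matches, which can touch or overlap. Windows were found for 6 sirtuins, of which SIRT1 and SIRT4 are printed:

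SIRT1 promoter, chr10:67884406-67884655, plus strand: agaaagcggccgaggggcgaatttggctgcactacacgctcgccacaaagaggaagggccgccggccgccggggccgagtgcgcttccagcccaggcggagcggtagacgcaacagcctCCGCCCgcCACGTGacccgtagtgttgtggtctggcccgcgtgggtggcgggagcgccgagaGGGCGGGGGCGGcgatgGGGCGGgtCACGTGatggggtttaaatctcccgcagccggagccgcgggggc
SIRT4 promoter, chr12:120302071-120302315, plus strand: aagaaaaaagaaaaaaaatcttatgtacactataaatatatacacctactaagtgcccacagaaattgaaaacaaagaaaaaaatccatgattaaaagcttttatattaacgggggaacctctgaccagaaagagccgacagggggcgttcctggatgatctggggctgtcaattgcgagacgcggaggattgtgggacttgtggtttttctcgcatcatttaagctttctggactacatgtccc

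The SIRT1 window held 4 GC boxes and 2 E boxes, with 72.7% G or C and a CpG ratio (observed over expected) of 1.03. The SIRT4 window held no match to any of the 5 motifs, 42.3% G or C and a CpG ratio of 0.679. Among 35114 windows of this length the medians were 58.7% and 0.579, and 45.0% held a GC box, 34.6% CCAAT, 7.26% the E box, 10.3% the ETS core and 1.24% the NRF1 motif. SIRT6 had 4 GC boxes and 1 match each to CCAAT, the ETS core and NRF1. SIRT5 had 1 GC box and 1 NRF1 match, SIRT3 1 GC box and 1 ETS core, and SIRT2 1 CCAAT. For SIRT4, SIRT5 and SIRT6 RefSeq gave a further window, and the one nearest to the GENCODE start was used. The further SIRT4 window held no match either, with 50.3% G or C and a CpG ratio of 0.862. That of SIRT5 held 2 GC boxes and 1 NRF1 match, and that of SIRT6 1 GC box and none of the other motifs. A match is a description of letters, not of a bound site.

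The genes whose levels went most like each sirtuin over the 15 libraries were taken by Pearson's r of log2 CPM among 10124 genes of at least 10 CPM, as a description. The libraries share their dose groups, so a high r is easily reached. For SIRT2 they were TUBB4B (r = 0.991), a β-tubulin, and IFT52 (r = 0.990), a part of the intraflagellar transport machinery. For SIRT4 they were the pseudogene SDAD1P1 (r = 0.992) and CGREF1 (r = 0.992), and for SIRT7 PHF1 (r = 0.977) and SLC26A6 (r = 0.961). SIRT1 went with STAMBP (r = 0.952) and RBBP6 (r = 0.95), SIRT3 with HOOK2 (r = 0.940) and KIAA0319L (r = 0.933), and SIRT5 with ENSG00000216775 (r = 0.885) and RAB30-DT (r = 0.877). Among the sirtuins themselves, SIRT2 and SIRT7 had r = 0.832, SIRT3 and SIRT4 r = 0.776, and SIRT1 and SIRT5 r = −0.619.

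The 11 zinc-dependent HDACs, the class at which the inhibitor is aimed, were called in both directions at 1 µM, where 4 sirtuins were called higher and 0 lower. Of the 11, 3 were called higher, 3 lower and 5 not, with a median of −0.10, where 38.8% of all genes tested were called higher and 27.5% lower. The lists that follow are to be read against the same 2 shares. On library totals 5 were higher, 3 lower and the median was 0.26. HDAC11 had a log2 fold change of 2.04 and HDAC6, the other tubulin deacetylase, of 1.46 (55.2 ± 1.95 to 152 ± 12.2 CPM, SD, n = 3). HDAC7 had −3.10 and HDAC2 −1.70. Library totals add about as much to each such value as to the median of all genes, which they move from 0.32 to 0.67 at 1 µM. HDAC1 (0.36), HDAC3 (−0.02) and HDAC8 (−0.10) were not called at 1 µM. HDAC6 was called higher at all 4 doses, whereas SIRT2 was called at 0.5 and 1 µM.

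Sirtuins depend on NAD+, and of 15 genes of NAD synthesis tested (17 listed) 7 were called higher and 4 lower at 1 µM, near the 38.8% and 27.5% of all genes, with a median of −0.03 (0.32 on library totals). NAMPT, the rate-limiting enzyme of the salvage route, was called lower at all 4 doses, with −0.95, −1.07, −1.05 and −1.07 in rising order, from 211 ± 16.6 CPM in untreated cells to 100 ± 4.88 at 1 µM. NMRK1, which phosphorylates nicotinamide riboside, rose by 3.40 from 1.08 ± 0.174 to 11.4 ± 1.16 CPM. NMNAT1, the nuclear enzyme that completes NAD, was called higher at 0.5 µM (0.60) and 1 µM (0.45). Of 6 genes of NAD handling tested (7 listed), 3 were called lower at 1 µM and 0 higher, beside 27.5% and 38.8% of all genes. NADK2 and NADK, the kinases that turn NAD into NADP, had log2 fold changes of −1.84 and −1.69.

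Other users of NAD were called in both directions: of 17 tested (19 listed) 8 were higher and 6 lower at 1 µM, near the 38.8% and 27.5% of all genes, with a median of 0.32 beside 0.32 for all genes. PARP1, the main poly(ADP-ribose) polymerase, had −1.17 (801 ± 45.5 to 356 ± 17.9 CPM) and was called lower at all 4 doses. PARP12 had −1.92 and PARP11 2.46. Of 6 genes known to act on SIRT1, 4 were called lower and 0 higher at 1 µM, beside 27.5% and 38.8% of all genes. On library totals 3 were lower and 1 higher, where 4781 and 10802 of the 23711 genes were. CCAR2, an inhibitor of SIRT1, had −0.39, −0.92, −0.67 and −0.60 in rising dose order with TMM, called at each (edgeR adjusted p of 0.046 at the lowest dose), with 33.2% of its exon bases under opposite-strand genes. Library totals moved the median of all genes at 0.15 µM from 0.28 to 0.64, so the CCAR2 call there depends on the scaling. SENP1, a SUMO protease, had −1.67.

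Substrates of the enzymes were counted from the same lists. Of 13 mitochondrial sirtuin substrates tested (16 of 17 listed were matched) 8 were called lower and 3 higher at 1 µM, beside 27.5% and 38.8% of all genes, with a median of −1.38, and on library totals 7 were lower, 3 higher and the median −1.03. PPIF, the mitochondrial cyclophilin, had −3.73 (397 ± 16.5 to 29.9 ± 2.02 CPM), and GLUD1, the glutamate dehydrogenase that SIRT4 acts on, had −1.38. IDH2, which SIRT3 deacetylates, had 0.91. Of 10 SIRT2 substrates 5 were called higher and 2 lower, near the 38.8% and 27.5% of all genes, with 5.15 for TUBA1A and −1.89 for BUB1B. Of 12 nuclear sirtuin substrates 5 were called in each direction, beside 38.8% higher and 27.5% lower among all genes, with 1.02 for FOXO1 and −1.92 for NBN.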

How the data were processed

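The authors selected poly(A) RNA from K562 cells, prepared directional libraries, trimmed reads (Trim Galore 0.6.10, and Trimmomatic per the methods), aligned them to hg38 with HISAT2 (2.2.1) and quantified GENCODE genes with featureCounts (1.5.3), per the methods and the submitters' notes. Lengths and overlaps given here use a later GENCODE release. The strand setting of the counting is not given in the sources used here. They deposited raw counts of 60649 genes in 15 libraries and, per library, FPKM. The length in the deposited FPKM equalled the genomic span of each sirtuin.

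Groups and replicate numbers came from the labels, which call the replicates biological. All pairs of replicates differed beyond sampling noise (chi-square per degree of freedom of 5.85 or more). The tests used edgeR 4.0.16 (R 4.3.3), with TMM scaling, filterByExpr, 1 fit of all 15 libraries with the group as the term (10 residual degrees of freedom, biological coefficient of variation 0.228), and the robust quasi-likelihood F test with Benjamini-Hochberg adjustment over all 23711 genes. DESeq2 1.42.0 and limma 3.58.1, the latter on log2(FPKM + 1) or log2(FPKM + 0.1), served as alternatives. The script was tested on simulated data. Shares, lengths (GENCODE release 44) and correlations were computed in Python 3.11.15. Symbols matched 99.8% of the gene identifiers. SOD2 was not matched and is not reported here.

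Pairing was checked by correlating the deviations of libraries from their group means. Same-numbered libraries gave 0.684 to 0.865 between 0.25 and 0.5 µM, and unlike-numbered ones at most 0.51 there. Between 0.15 and 0.25 µM unlike-numbered libraries reached 0.668. The labels state no pairing. The main fit tested every step unpaired, and the replicate block served as an alternative only. In each other pair of groups at least 1 same-numbered pair was under 0.1. The members and gene lists were chosen with earlier results of these data known. Other genes named were the called genes with the highest and lowest change at 1 µM in each list (mean of at least 5 CPM), fixed genes (NAMPT, NMNAT1, PARP1, CCAR2, HDAC1, HDAC2, HDAC3, HDAC6 and HDAC8), the 2 genes most like each sirtuin called, and neighbours. GLUD1 was named after its values were seen. Promoters are from RefSeq, which gave windows for 6 of the 7. Alternatives covered scaling, filters, test, samples in the fit, replicate block and each library left out.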

Additional observations from a re-analysis of the deposited data

How the results depend on the processing

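Each log2 fold change was recomputed under 26 or 27 alternatives. A change of sign in a value called under neither setting was counted only where it exceeded 1 standard error. Of these values 1357 kept direction and side of the threshold, 39 lost the call, 21 gained it and 46 turned. None of the turned values was called. For library totals, TMM from genes of at least 10 CPM and limma on FPKM + 1 and FPKM + 0.1 in this order, they were 0.25, 0.15, 0.17 and 0.24 for SIRT2 and 0.31, 0.22, 0.22 and 0.28 for SIRT7 at 0.15 µM, 0.35, 0.26, 0.28 and 0.32 for SIRT6 and 0.33, 0.23, 0.24 and 0.31 for SIRT7 at 0.25 µM, 0.064, 0.10, 0.032 and 0.050 for SIRT1 at 0.5 µM, and 0.18, 0.21, 0.10 and 0.16 for SIRT1 at 1 µM. For SIRT5 at 1 µM they were 0.28, 0.31 and, on FPKM + 0.1, 0.22, and for SIRT3 between 0.15 and 0.25 µM 0.12, 0.11 and 0.12. With at least 10 counts in every library, which also leaves genes that were low in untreated cells out of the scaling, they were 0.071 for SIRT7 at 0.25 µM, 0.068 for SIRT1 and 0.16 for SIRT5 at 1 µM. Without the third replicates at 0.25 and 0.5 µM they were −0.17 for SIRT5 at 0.5 µM, and −0.14 for SIRT2 and 0.14 for SIRT5 between 0.5 and 1 µM. Leaving out 1 library each gave −0.21 to 0.20 for SIRT5 and −0.18 to 0.36 for SIRT6 at 0.5 µM, −0.26 to 0.35 for SIRT6 at 1 µM, −0.15 to 0.17 for SIRT3 and −0.31 to 0.12 for SIRT7 between 0.15 and 0.25 µM, −0.032 to 0.59 for SIRT6 between 0.25 and 0.5 µM, −0.15 to 0.27 for SIRT2, −0.28 to 0.14 for SIRT5 and −0.40 to 0.36 for SIRT6 between 0.5 and 1 µM, and −0.39 to 0.23 for SIRT6 between 0.15 and 1 µM. The cause was not tested.

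The number of sirtuins called at 0.25 µM was 3, and 5 both with TMM from genes of at least 10 CPM and with limma on FPKM + 0.1. All other counts of calls stayed within 1.5 times, and leaving out 1 library each gave 2 to 3, 2 to 4, 4 to 5 and 4 calls at the 4 doses and 4 to 6 in the test over 5 groups. With the replicate number as a block over only those libraries, the step of SIRT6 from 0.25 to 0.5 µM was 0.28 (edgeR adjusted p = 0.035), and with a block over all 15 libraries 0.29 (edgeR adjusted p = 0.47). The block changed no other call.

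Shares of the summed level depend on the length. For untreated cells and 1 µM, deposited FPKM gave 10.3% and 6.035% for SIRT1, 0.517% and 4.24% for SIRT4, 2.94% and 1.81% for SIRT5, and 23.4% and 28.5% for SIRT7, with 8.68% for SIRT3 and 37.3% for SIRT6 in untreated cells and 24.8% for SIRT2 at 1 µM. The MANE Select length, chosen after seeing the data, gave 12.0% and 6.62% for SIRT1, 27.7% and 38.1% for SIRT2, 0.664% and 5.11% for SIRT4, 3.77% and 2.17% for SIRT5, 18.2% and 20.8% for SIRT7, and 28.2% for SIRT6 in untreated cells. Exon bases under no other gene gave 3.50% and 2.16% for SIRT5 and 10.8% for SIRT7 in untreated cells. SIRT4 rests on 18 to 25 counts per untreated library, which limits its folds. The block for 0.5 against 0.25 µM over those libraries alone was chosen after seeing the data.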
